A study of Mus musculus with 6 samples.

Results

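Etv1, Etv4 and Etv5 form the PEA3 subfamily of ETS transcription factors, and their transcripts were followed by name through 6 RNA-seq libraries of cultured mouse spermatogonial stem cells. All 3 genes were found among the 41053 gene names counted, and all 3 passed the filter on low counts that left 15263 genes for testing. The 6 lines came from adult cells that were electroporated with a GFP reporter plasmid, sorted by fluorescence and subcloned. The 3 lines labelled Ephb2-KO had also received a guide RNA against Ephb2, an Eph family receptor tyrosine kinase, and the 3 wild-type (WT) lines had not. Each line is a subclone and was sequenced once as polyadenylated RNA. Replicates are numbered 1 to 3 in both groups. Replicates 1 and 2 were at passage 20 and replicate 3 at passage 18. All 6 lines went through the GFP sort, and nothing in the labels ties equal numbers to a common culture or says that replicates are separate animals. The p-values therefore measure the spread between these libraries only. Total counts were between 21772404 and 34047758 reads per library, and all 14 germ cell markers looked up were detected in all 6 libraries.

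PEA3 factors bind DNA through an ETS domain and are switched on transcriptionally by receptor tyrosine kinases acting through RAS and the kinase ERK. In mouse spermatogonial stem cells, GDNF (acting through Gfra1 and Ret) and fibroblast growth factors are the signals best known for raising Etv5, and Etv5 is needed for the upkeep of the stem cell pool. The same signals induce feedback inhibitors of the pathway, the Sprouty and Spred proteins and the ERK phosphatases of the Dusp family. The repressor capicua, encoded by Cic, holds PEA3 genes down when ERK signalling is low, and the ubiquitin ligase Cop1 with the adaptor Det1 marks PEA3 proteins for breakdown.

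In GRCm38, Etv1 lies on the plus strand of chromosome 12 from 38779380 to 38868215, with 5889 bases of annotated exon. Etv4 occupies chromosome 11, 101769742 to 101785371 (minus strand), with 3104 bases of exon. Etv5 occupies chromosome 16, 22381309 to 22439719 (minus strand), with 4103 bases of exon. No other counted gene overlapped any of the 3. RefSeq start windows (GRCm38.p6) matched 2 of the 3 members by symbol, with a pair of windows each. Printed here are the 250 bases before 1 start of Etv5, the member with the widest range between libraries, and before 1 start of Etv1, the member with a different pattern. Neither stretch overlaps an exon of its gene, as checked in a later gene annotation than the one used for counting. Both lie inside the gene coordinates given above, so these starts are internal. The other Etv5 window spans 22439719, where the gene begins on the minus strand. Capitals mark TGAATG on either strand, the first 6 letters of the octamer TGAATGAA that capicua binds.
Etv5, chr16:22438369-22438618, minus strand: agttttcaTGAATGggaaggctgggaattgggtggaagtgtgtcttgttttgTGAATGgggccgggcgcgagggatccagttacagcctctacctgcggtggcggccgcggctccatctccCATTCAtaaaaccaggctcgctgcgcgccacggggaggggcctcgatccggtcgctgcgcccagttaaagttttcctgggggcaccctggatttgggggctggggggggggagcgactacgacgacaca
Etv1, chr12:38779832-38780081, plus strand: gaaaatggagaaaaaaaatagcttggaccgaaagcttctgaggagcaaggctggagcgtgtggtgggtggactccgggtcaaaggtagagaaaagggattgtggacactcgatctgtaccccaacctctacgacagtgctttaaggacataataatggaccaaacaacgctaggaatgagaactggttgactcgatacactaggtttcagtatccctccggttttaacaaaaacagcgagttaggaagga

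The Etv5 stretch held TGAATG 3 times, beginning 242, 198 and 129 bases upstream of the start, and the Etv1 stretch held it 0 times. The other Etv5 window, at chr16:22439571-22439820, held TGAATG 0 times and GGAAG 0 times, and the other Etv1 window held each 0 times, so the matches belong to 1 of the 2 Etv5 starts. Across 32841 windows of the same 250 bases, 10.9% held the hexamer at least once and 0.131% held it 3 or more times. The hexamer was picked after the sequence had been read. The full octamer TGAATGAA, present in 1.08% of windows, and its variant TCAATGAA, in 0.642%, occurred 0 times in either stretch. GGAAG, a core often bound by ETS factors, occurred 2 times in the Etv5 stretch and 1 time in the Etv1 stretch, and 64.1% of windows held it. These are letter matches in a window and not sites of binding.

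Etv5 was the most abundant member by read count. Expression is given as CPM, read counts relative to library sizes scaled by TMM. In libraries labelled Ephb2-KO, Etv5 stood at 23.3, 218 and 31.9 CPM in replicates 1, 2 and 3, and in WT libraries at 24.7, 252 and 31.2 CPM. Both replicate 2 libraries lay far above the other 4, and the 2 groups overlapped. Group means were 91.1 ± 110 CPM in libraries labelled Ephb2-KO and 103 ± 129 CPM in WT libraries (SD, n = 3 each), so the SD exceeded the mean in each group. Without the replicate 2 libraries, all values lay between 23.3 and 31.9 CPM.

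Etv4 followed the same outline at a lower level. It stood at 19.5, 80.7 and 12.8 CPM in replicates 1, 2 and 3 labelled Ephb2-KO, and at 13.4, 84.3 and 12.3 CPM in WT replicates 1, 2 and 3. Again both replicate 2 libraries were above the other 4 and the groups overlapped. The group means were 37.7 ± 37.4 CPM in libraries labelled Ephb2-KO and 36.6 ± 41.2 CPM in WT libraries (SD, n = 3 each).

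Etv1 was scarce and ordered the libraries differently. Its counts were 21, 42 and 65 reads in replicates 1, 2 and 3 labelled Ephb2-KO, and 15, 34 and 102 reads in the WT libraries. As CPM these were 0.592, 1.89 and 3.19 in libraries labelled Ephb2-KO (1.89 ± 1.30, SD, n = 3), and 0.402, 1.33 and 4.21 in WT libraries (1.98 ± 1.98, SD, n = 3). Replicate 1 was lowest and replicate 3 highest in both groups. Counting error is large at this depth: for the 15 reads of WT replicate 1 the exact Poisson 95% interval ran from 8.40 to 24.7 reads, and it covers counting error only.

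**Figure D1:**
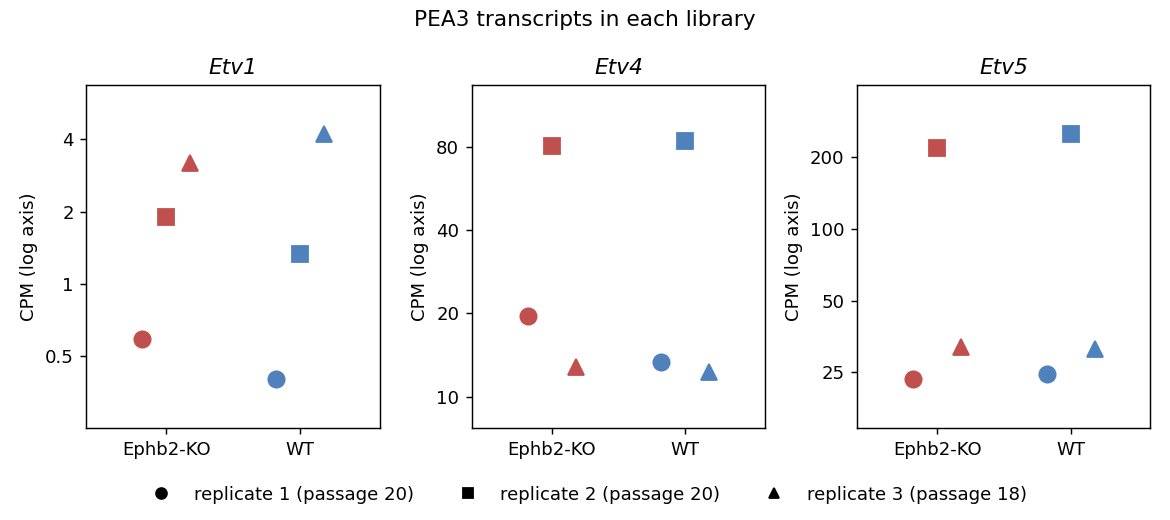
CPM of Etv1, Etv4 and Etv5 on log axes in the 3 libraries labelled Ephb2-KO (left in each panel) and the 3 WT libraries (right), 1 point per library, with the marker shape giving the replicate number. The replicate 2 squares stand apart for Etv4 (80.7 and 84.3 CPM) and Etv5 (218 and 252 CPM), while for Etv1 the replicate 3 triangles are highest (3.19 and 4.21 CPM).

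Levels of different genes were set against each other only per length, as CPM per kb of annotated exon. Etv1 was the lowest of the 3 in 6 of 6 libraries, at 0.101, 0.321 and 0.542 CPM per kb in libraries labelled Ephb2-KO and at 0.0682, 0.226 and 0.715 CPM per kb in WT libraries. Etv5 was above Etv4 in 5 of 6 libraries. The exception was replicate 1 labelled Ephb2-KO, with 5.69 CPM per kb for Etv5 and 6.29 for Etv4. In the replicate 2 libraries Etv5 stood at 53.2 CPM per kb in the one labelled Ephb2-KO and 61.3 in WT, against 26.0 and 27.1 for Etv4. Outside replicate 2 the ratio of Etv5 to Etv4 on this scale ranged from 0.904 to 1.92, and inside it the ratio was 2.05 in the library labelled Ephb2-KO and 2.26 in WT. The Etv5 level per kb was at the 91.2 percentile of tested genes in replicate 2 labelled Ephb2-KO and at the 92.8 percentile in WT replicate 2, and between the 49.0 and 55.0 percentiles in the other 4 libraries.

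**Figure D2:**
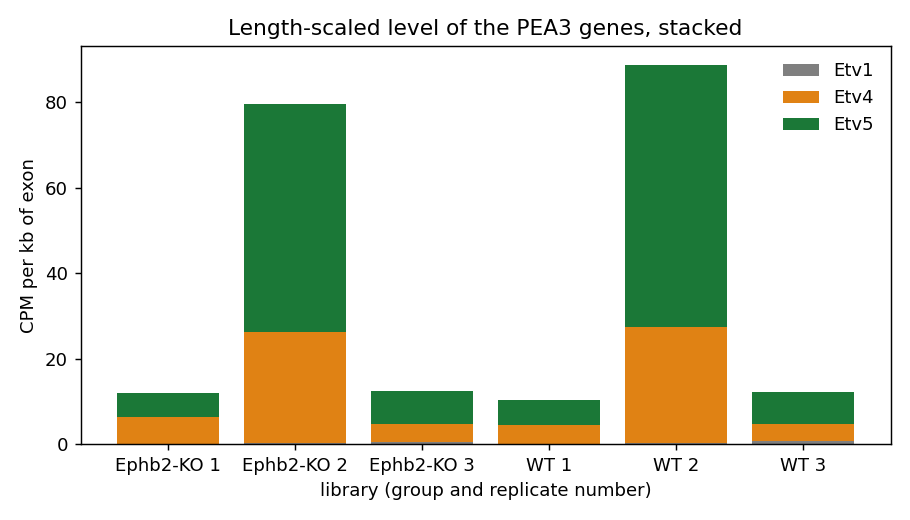
Summed level of the PEA3 genes in CPM per kb of exon, stacked by gene, 1 bar per library, with libraries labelled Ephb2-KO on the left and WT on the right. The sum was 79.5 and 88.7 in the replicate 2 libraries and between 10.4 and 12.4 in the other 4, with Etv1 a thin bottom layer throughout.

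The study's own comparison asks how these cells differ when the guide against Ephb2 has been used, and no PEA3 gene passed it. Ephb2 itself stood at 37.1, 16.5 and 13.4 CPM in replicates 1, 2 and 3 labelled Ephb2-KO and at 21.3, 27.1 and 10.8 CPM in WT, so the groups overlapped, the transcript level does not tell the labels apart, and the lines are named by their labels here. The log2 fold change of libraries labelled Ephb2-KO over WT was -0.17 (SE 1.14) for Etv5, 0.04 (SE 0.95) for Etv4 and -0.07 (SE 0.93) for Etv1. The edgeR quasi-likelihood test gave an adjusted p of 1.0 for each, and it called 0 of 15263 genes (0%), with 32 at an unadjusted p under 0.05. DESeq2 called 4 genes. Exact two-sided permutation tests on log2 CPM gave p = 0.8 for Etv1, 0.9 for Etv4 and 0.8 for Etv5, where 3 libraries against 3 cannot go below 0.1. The fold of Etv5 had a 95% interval from 0.138 to 5.73. Single libraries set the sign: Etv5 had -1.90 without replicate 2 labelled Ephb2-KO and 1.71 without WT replicate 2, and Etv4 had -1.18 and 1.56 under the same omissions. Etv1 had -0.68 without replicate 3 labelled Ephb2-KO and 1.13 without WT replicate 3.

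Comparing lines of the same number removed most of that spread. Between same-numbered libraries, log2 CPM of Etv5 in the library labelled Ephb2-KO minus WT was -0.08 in pair 1, -0.21 in pair 2 and 0.03 in pair 3. For Etv4 the differences were 0.54, -0.06 and 0.06, and for Etv1 they were 0.49, 0.48 and -0.39. None of the 3 genes kept 1 sign in every pair. The CPM ranges of the groups overlapped for all 3 members, and they did not overlap for 2.39% of tested genes. With the replicate number as a block, the log2 fold change was -0.09 (SE 0.12) for Etv5, 0.18 (SE 0.15) for Etv4 and 0.17 (SE 0.36) for Etv1. Adjusted p was 0.879, 0.815 and 0.928 (edgeR quasi-likelihood test), and the blocked fit called 4 genes in all (0.0262%), 0.00655% higher and 0.0197% lower. The blocked 95% interval of the fold ran from 0.789 to 1.12 for Etv5, from 0.899 to 1.43 for Etv4 and from 0.650 to 1.95 for Etv1. A change of Etv5 or Etv4 as large as that between replicate numbers, given next, lay outside these intervals.

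Between lines of the same labelled passage, Etv5 and Etv4 rose in replicate 2 relative to replicate 1 in both groups. In the fit with genotype and replicate number, Etv5 had a log2 fold change of 3.29 (SE 0.15, adjusted p = 1.09e-06) for replicate 2 over replicate 1, a fold of 9.77 with a 95% interval from 7.75 to 12.3. Etv4 had 2.34 (SE 0.19, adjusted p = 5.52e-05), a fold of 5.07 with a 95% interval on the log2 scale from 1.93 to 2.76. Etv1 rose as well, by 1.69 (SE 0.46, adjusted p = 0.0310), a fold of 3.22 with an interval from 1.59 to 6.51. All tests here are edgeR quasi-likelihood tests adjusted over all tested genes. All 3 members were called higher, where 8.14% of tested genes were called higher, 8.35% lower and 16.5% in either direction. Etv5 had the rank of 2 among 15263 genes by p, and Etv4 the rank of 25. Both were among the 142 genes (0.93%) that passed and were at least 4-fold higher. Etv1 lost its call without replicate 2 labelled Ephb2-KO (adjusted p = 0.202), WT replicate 2 (0.0682) or WT replicate 3 (0.0563), while Etv4 and Etv5 kept theirs under the 11 alternatives run for each. With 2 libraries per number these p-values rest on small groups. Same-numbered libraries deviated together across genes, so they may not be independent replicates of their number. The p-values measure agreement within a number, and how far separate cultures would differ was not measured. Line number, parent culture and handling cannot be told apart.

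Against replicate 3, a contrast added after the values had been seen, replicate 2 was again higher for Etv5 and Etv4 and lower for Etv1. The log2 fold change of replicate 2 over replicate 3 was 2.89 (SE 0.15, adjusted p = 5.35e-07) for Etv5 and 2.72 (SE 0.19, adjusted p = 2.81e-06) for Etv4 by edgeR. For Etv1 it was -1.22 (SE 0.43, adjusted p = 0.0362). In this contrast 20.9% of tested genes were called higher, 24.5% lower and 45.4% in either direction. The Etv1 call was lost without replicate 2 labelled Ephb2-KO (adjusted p = 0.0942), replicate 3 labelled Ephb2-KO (0.0633), WT replicate 2 (0.292) or WT replicate 3 (0.460). Both contrasts use the same replicate 2 libraries, and here too the p-values measure agreement within a number. Over all tested genes, 16.2% had both replicate 2 libraries above the other 4, as Etv4 and Etv5 did, and 26.9% had both replicate 3 libraries above the other 4, as Etv1 did. Etv4 also had both replicate 3 libraries below the other 4, as 26.6% of tested genes did.

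No PEA3 gene passed the comparison of the labelled passages. With 4 libraries at passage 20 and 2 at passage 18, the log2 fold change of passage 20 over passage 18 was 2.03 (SE 1.13, edgeR adjusted p = 0.229) for Etv5, 1.98 (SE 0.85, adjusted p = 0.135) for Etv4 and -1.86 (SE 0.63, adjusted p = 0.0674) for Etv1. No member was called, where 25.8% of tested genes were called, 10.4% higher and 15.4% lower. The 25.8% rests on both replicate 3 libraries, since 325 genes were called without replicate 3 labelled Ephb2-KO and 284 without WT replicate 3, against 3935 with all 6. Etv4 was called without WT replicate 1 (2.32, adjusted p = 0.0316) and Etv1 without replicate 2 labelled Ephb2-KO (-2.34, adjusted p = 0.0403). With replicate number in place of passage all 3 were called, at 1.25 for Etv5, 1.55 for Etv4 and -2.07 for Etv1 (edgeR adjusted p = 2.01e-05, 3.59e-05 and 0.000799), where 48% of tested genes were called, 23% higher and 25% lower. That contrast averages replicates 1 and 2. Without both replicate 2 libraries the Etv5 value was -0.41 (adjusted p = 0.0780), with the direction turned, and Etv4 had 0.35. Passage 18 is replicate 3 only, so passage and line number cannot be told apart.

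**Figure D3:**
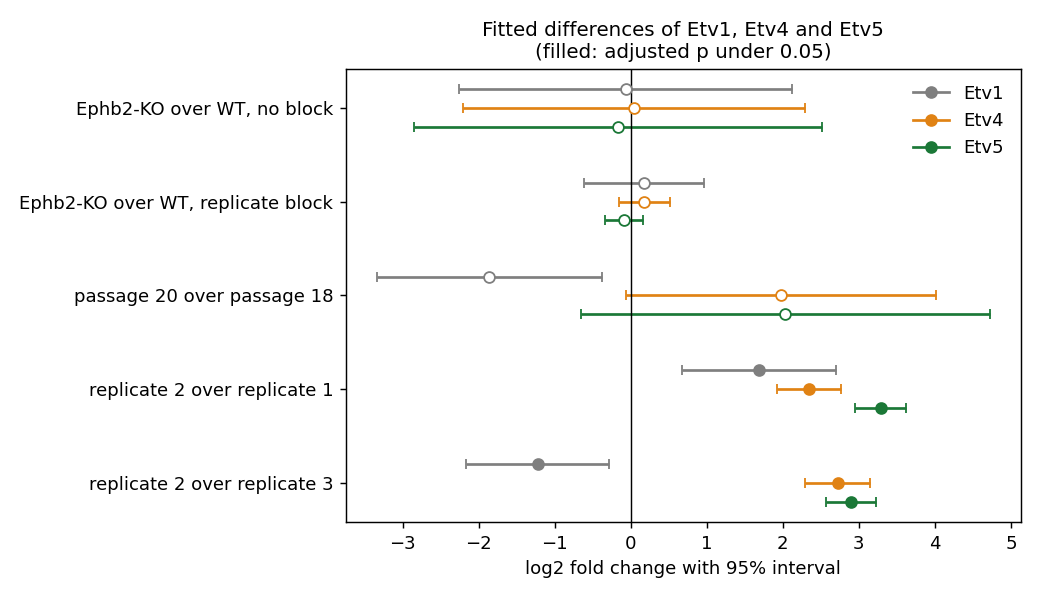
Log2 fold changes of Etv1, Etv4 and Etv5 with 95% intervals in 5 fits, with filled points where the adjusted p was under 0.05. The Ephb2-KO over WT intervals all cross 0, with and without the block, and Etv5 and Etv4 stand at 3.29 and 2.34 for replicate 2 over replicate 1 and at 2.89 and 2.72 for replicate 2 over replicate 3.

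Genes that ERK signalling induces moved with Etv4 and Etv5 between replicate numbers. Of 20 ERK feedback and immediate target genes, 16 rose and 0 fell in replicate 2 over replicate 1, with a list median log2 fold change of 1.20 beside -0.01 over all tested genes, of which 8.14% were called higher and 8.35% lower. The 4 with the smallest p were the Sprouty gene Spry4 at 2.50 (SE 0.16), the ERK phosphatase genes Dusp5 at 2.03 (SE 0.15) and Dusp6 at 1.72 (SE 0.14), and Spred2, an inhibitor of the ERK pathway, at 1.96 (SE 0.17). Dusp6 stood at 82.1, 273 and 93.1 CPM in replicates 1, 2 and 3 labelled Ephb2-KO and at 85.7, 280 and 104 CPM in WT. Spry4 stood at 16.4, 97.2 and 7.66 CPM in libraries labelled Ephb2-KO and at 21.4, 116 and 8.42 CPM in WT. As with Etv5, the replicate 2 libraries were highest in both groups. Spred1 (1.59, SE 0.14) and Spry2 (1.02, SE 0.15) also rose. Over replicate 3, 14 of the 20 rose and 3 fell (list median 1.47, all genes -0.01, with 20.9% called higher and 24.5% lower), led by Spry4 at 3.73 (SE 0.17), Dusp5 at 2.77 (SE 0.15), the immediate early gene Egr3 at 3.49 (SE 0.21) and Spry1 at 2.06 (SE 0.16). Spry2 did not pass there (-0.25, SE 0.15). Both replicate 2 libraries were above the other 4 for 12 of the 20 genes, as for 16.2% of all tested genes. The number called among the 20 ranged from 14 to 16 over 11 alternatives for replicate 2 over replicate 1.

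Immediate early genes of the same list did not all follow. Fos had -0.36 (SE 0.14, edgeR adjusted p = 0.0968) in replicate 2 over replicate 1, and Egr1 (0.08, SE 0.17), Egr2 (0.19, SE 0.14) and the phosphatase gene Dusp7 did not pass. Between libraries labelled Ephb2-KO and WT 0 of the 20 passed, 14 lay above 0 and 6 below, and the median was 0.12 beside 0.01 over all genes. The list members with the smallest p there were Dusp7 (0.31, SE 0.28) and Egr2 (-0.41, SE 0.47).

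**Figure D4:**
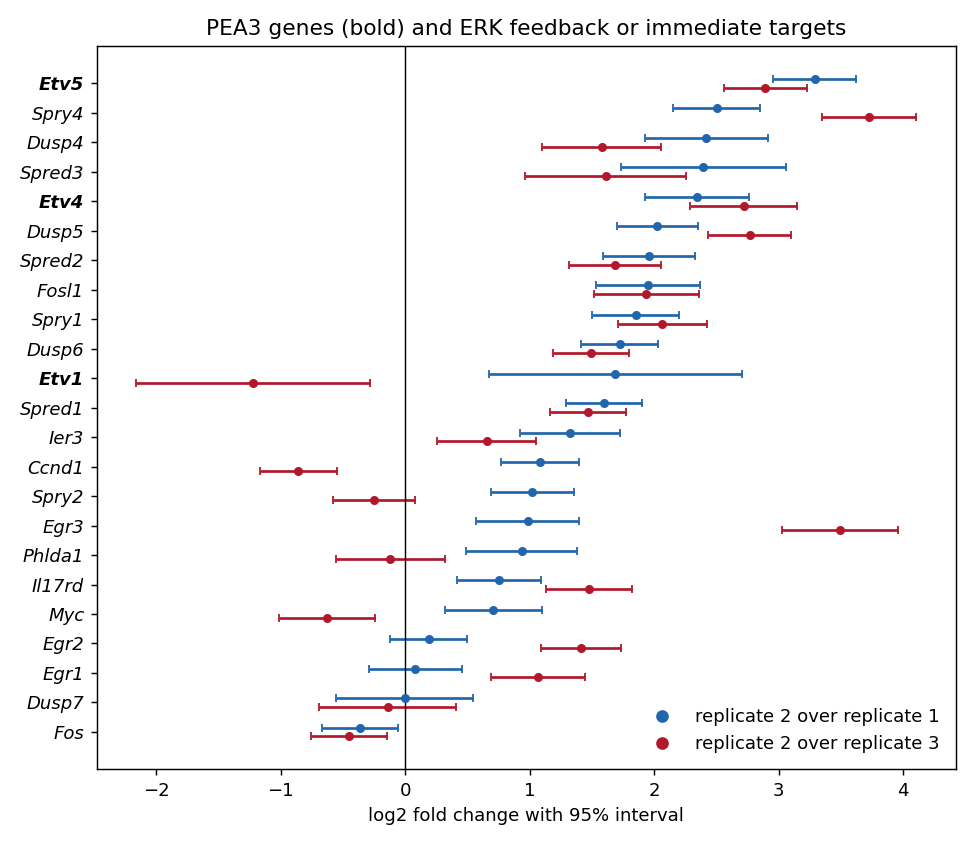
Log2 fold changes with 95% intervals of Etv1, Etv4 and Etv5 (bold) and the 20 ERK feedback and immediate target genes, for replicate 2 over replicate 1 (blue) and over replicate 3 (red), sorted by the first. Etv5 is at the top with 3.29 and Spry4 next with 2.50, while Etv1 (1.69 and -1.22) and Ccnd1 (1.08 and -0.86), a cyclin gene, are among those that lie on opposite sides of 0 in the pair of contrasts.

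Genes for receptors and adaptors upstream of Etv5 had smaller log2 fold changes than Etv5 between replicate numbers. Of 12 GDNF and FGF receptor genes and adaptors, 2 rose and 1 fell in replicate 2 over replicate 1 (median 0.19, all genes -0.01), where 16.5% of all tested genes were called: the GDNF family receptor genes Gfra2 (1.23, SE 0.22) and Gfra1 (0.70, SE 0.15) rose and the adaptor gene Frs3 fell (-0.76, SE 0.16). Ret, the signalling subunit of the GDNF receptor, had 0.39 (SE 0.15, adjusted p = 0.104), and Fgfr1, Fgfr2 and Fgfr3 had 0.32 (SE 0.16), 0.20 (SE 0.22) and -0.19 (SE 0.31), none of which passed. Gfra1 stood at 149, 232 and 125 CPM in replicates 1, 2 and 3 labelled Ephb2-KO and at 147, 246 and 100 CPM in WT. Of 19 RAS-ERK cascade genes 2 rose (Rasa1 at 0.59, SE 0.14, and Map2k2 at 0.48, SE 0.14) and 1 fell, with a median of 0.19. Over replicate 3, where 45.4% of all tested genes were called, 3 receptor genes rose and 2 fell (median 0.32, all genes -0.01), with Ret at 1.38 (SE 0.16), Gfra1 at 1.09 (SE 0.15), Fgfr2 at -0.90 (SE 0.22) and Gfra3 at 0.93 (SE 0.23). Of the cascade genes 9 rose and 4 fell there (median 0.37), among them Rasa1 (0.73, SE 0.14), Grb2 (-0.70, SE 0.15) and Braf (0.76, SE 0.16). None of these receptor or cascade genes passed for libraries labelled Ephb2-KO over WT (medians 0.03 and 0.04), where the smallest p belonged to Fgfr1 (0.26, SE 0.22), Gfra4 (-0.37, SE 0.32), Sos2 (-0.24, SE 0.29) and Map2k2 (0.18, SE 0.24).

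Some genes known to respond to GDNF in stem spermatogonia rose with Etv5. Of 14 tested, 4 rose and 1 fell in replicate 2 over replicate 1 (median 0.27, all genes -0.01), where 8.14% of all tested genes rose and 8.35% fell: the tetraspanin gene Tspan8 (2.25, SE 0.34), the chemokine receptor gene Cxcr4 (1.25, SE 0.24), Egr3 (0.98, SE 0.19) and Gfra1 rose, and Mycn fell (-0.80, SE 0.20). Bcl6b, a transcriptional repressor downstream of Etv5, had 0.45 (SE 0.24, edgeR adjusted p = 0.227; 0.96 and called without replicate 1 labelled Ephb2-KO), and the homeobox gene Lhx1 had -0.35 (SE 0.47). Over replicate 3, 12 rose and 0 fell (median 1.05, all genes -0.01), where 20.9% of all tested genes rose and 24.5% fell, among them Egr3, Egr2 (1.41, SE 0.14), Ret, Gfra1, Bcl6b (1.29, SE 0.24), Lhx1 (1.92, SE 0.55) and Cxcr4. T, which encodes brachyury, had 3, 2 and 1 reads in replicates 1, 2 and 3 labelled Ephb2-KO and 0 reads in each WT library, which allows up to 3, and was not tested. Between the groups 0 of the 14 passed (median -0.04), and Nanos2 (-0.33, SE 0.33) and Egr2 had the smallest p. In bulk RNA, fewer cells of a type and less RNA per cell cannot be told apart. The 14 germ cell markers moved in a similar way over replicate 3, where 11 rose and 0 fell (median 0.83). Over replicate 1, 3 of them rose and 1 fell (median 0.15). The lists share genes, among them Gfra1 and Sall4 with the germ cell markers and Egr2 and Egr3 with the ERK targets. Germ cell markers summed to 1934 CPM in replicate 3 labelled Ephb2-KO and 2156 CPM in WT replicate 3, against 3267 to 3755 CPM in the other 4 libraries. The part of germ cell markers in the contrast with replicate 3 was not tested.

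Regulators of PEA3 genes and proteins passed at shares near those of all genes, 16.5% of which were called over replicate 1 and 45.4% over replicate 3. Of 11 genes around capicua and PEA3 protein turnover, 1 rose and 1 fell in replicate 2 over replicate 1 (median 0.21): Trib1, a pseudokinase that works with Cop1, had 1.09 (SE 0.15), and Trib3 had -0.61 (SE 0.15). The related gene Trib2 had 0.72 (SE 0.22) and did not pass. Cic did not pass (0.40, SE 0.18, edgeR adjusted p = 0.150), with 165, 168 and 110 CPM in replicates 1, 2 and 3 labelled Ephb2-KO and 108, 183 and 84.3 CPM in WT. Over replicate 3, 4 of the 11 rose and 2 fell although the list median was -0.26, with Trib2 at -1.12 (SE 0.22), Trib1 at 0.75 (SE 0.15), Trib3 at -0.73 (SE 0.15) and Cic at 0.88 (SE 0.18). For libraries labelled Ephb2-KO over WT, Atxn1, a partner of capicua, had 0.73 (SE 0.44) and Dda1 had 0.23 (SE 0.23), and 0 of the 11 passed (median 0.15). Of 16 tested ETS factors outside the PEA3 subfamily, 3 rose and 1 fell in replicate 2 over replicate 1 (median 0.07, all genes -0.01), beside 16.5% of all tested genes called. Erg fell (-1.54, SE 0.17), and Gabpa (0.61, SE 0.16), Elk4 (0.62, SE 0.16) and Elk3 (0.71, SE 0.19) rose. Over replicate 3, 6 of the 16 rose and 2 fell (median 0.28, all genes -0.01), beside 45.4% of all tested genes called, led by Elk3 (-1.48, SE 0.19), Elk4 (1.17, SE 0.16), Ets2 (1.14, SE 0.23) and Etv3 (0.73, SE 0.17). Between the groups 0 of the 16 passed (median 0.09), with Fli1 at -1.05 (SE 0.56) and Spib at 0.83 (SE 0.53).

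The genes most like each member were ranked by the root mean square difference of mean-centred log2 CPM over the 6 libraries, among genes with a mean of at least 5 CPM. The 5 nearest to Etv4 were Dusp5 (0.21), Sema7a (0.26), Hbegf (0.28), Zswim4 (0.30) and Spry1 (0.31). For Etv5 they were Ereg (0.27), Sema7a (0.37), Gbp5 (0.39), Gfod1 (0.40) and Epha2 (0.41). Ereg and Hbegf encode growth factors of the EGF family, and Sema7a encodes a membrane semaphorin. Ereg stood at 4.88, 60.0 and 8.10 CPM in replicates 1, 2 and 3 labelled Ephb2-KO and at 4.34, 49.8 and 9.49 CPM in WT, with the replicate 2 libraries highest. Etv4 held the rank of 7 in the order for Etv5, and Etv5 the rank of 19 in the order for Etv4, among 11391 genes. For Etv1 the nearest were Pi15 (0.16), Anxa5 (0.19), Vgll3 (0.21), Oaf (0.21) and Cav1 (0.22). Cav1, which encodes the caveolar protein caveolin, stood at 53.0, 126 and 308 CPM in replicates 1, 2 and 3 labelled Ephb2-KO and at 37.7, 87.9 and 277 CPM in WT. The 6 libraries are shared by all of these comparisons, so the ranks are a description.

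Some markers of other cells moved with some of these patterns. The 14 fibroblast markers were all detected, and their sum was 4844, 5470 and 20355 CPM in replicates 1, 2 and 3 labelled Ephb2-KO and 3109, 4324 and 17347 CPM in WT. Of the 14, 12 had both replicate 3 libraries above the other 4, beside 26.9% of all tested genes. Thy1 and Twist1 did not, and Twist1 had both replicate 2 libraries above the other 4. Etv1 and the fibroblast sum were both highest in the replicate 3 libraries, and the part of these markers in the Etv1 values was not tested. Etv5 and Etv4 did not share that order, since their replicate 3 values were 31.9 and 12.8 CPM in the library labelled Ephb2-KO and 31.2 and 12.3 CPM in WT. The 12 Sertoli markers summed to between 63.1 and 107 CPM, with the replicate 2 libraries at 107 CPM (labelled Ephb2-KO) and 101 CPM (WT), and Fshr at 0 in all 6. That list holds Gdnf, which encodes the ligand GDNF and stood at 0.676, 5.90 and 1.62 CPM in replicates 1, 2 and 3 labelled Ephb2-KO and at 0.455, 3.64 and 0.743 CPM in WT. Both replicate 2 libraries were above the other 4 for Gdnf, as for Etv4 and Etv5 and for 16.2% of all tested genes. Of the 9 Sertoli markers tested, 3 had that order, Gdnf among them. In replicate 2 over replicate 1, 3 of the 9 were called higher and 1 lower, beside 8.14% and 8.35% of all tested genes. The part of Gdnf in the values of Etv4 and Etv5 was not tested. Leydig markers summed to at most 2.25 CPM. The 8 macrophage and endothelial markers summed to 31.4 CPM in replicate 2 labelled Ephb2-KO and 34.6 CPM in WT replicate 2, against 11.3 to 14.7 CPM in the other 4 libraries. Cd68 held the most of it, and the pan-leukocyte gene Ptprc did not exceed 0.246 CPM. Of the 5 tested, 4 had both replicate 2 libraries above the other 4 and 1 had both below. Among all tested genes the shares were 16.2% and 17.9%. The marker with both below was Csf1r, with means of 0.429, 0.205 and 0.833 CPM in replicates 1, 2 and 3. The part of these markers in the replicate 2 values of Etv4 and Etv5 was not tested.

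**Figure D5:**
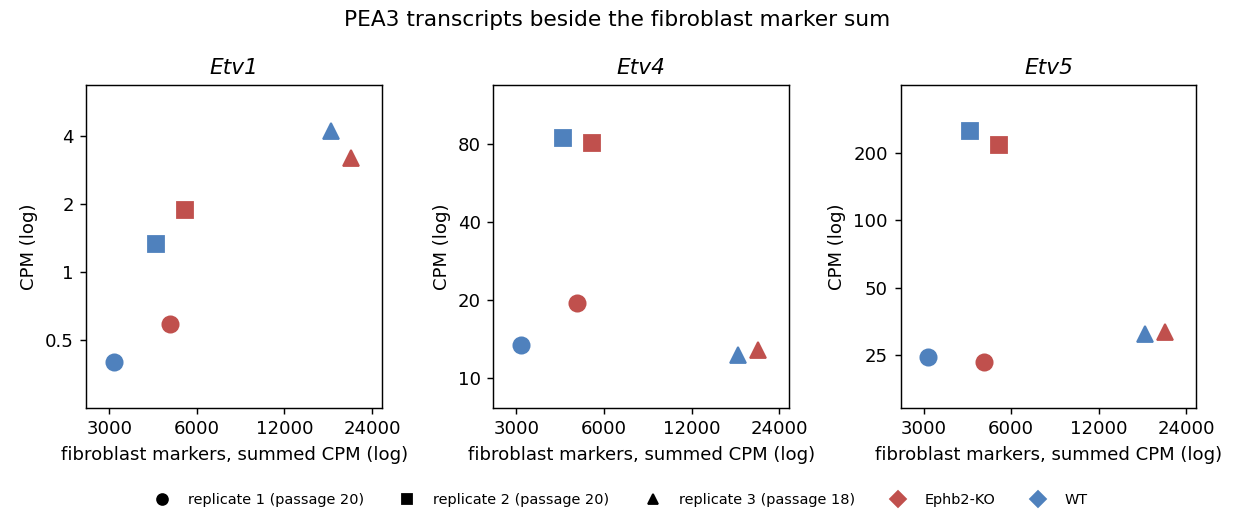
CPM of each PEA3 gene (vertical, log axis) against the summed CPM of 14 fibroblast markers (horizontal, log axis), 1 point per library, coloured by group with the marker shape giving the replicate number. The replicate 3 libraries lie at 20355 CPM (Ephb2-KO) and 17347 CPM (WT) on the horizontal axis, where Etv1 is highest and Etv4 and Etv5 are not.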

How the data were processed

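Reads per gene name, as raw counts, were deposited with each gene's summed exon length. Per the file headers, the authors ran featureCounts 1.4.6-p4 on GENCODE vM3 exons with strand setting 2, on 1 merged alignment per library. STAR, FastQC and GRCm38.p3 are named in the submitters' processing notes, with no settings given in sources used here. Total counts ranged from 21772404 to 34047758 per library.

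In R 4.3.3, edgeR 4.0.16 was used with filterByExpr, TMM, robust glmQLFit and glmQLFTest, with Benjamini-Hochberg adjustment over 15263 genes and a threshold of 0.05. The comparison of libraries labelled Ephb2-KO with WT had no covariate, the passage fit had genotype, and replicate contrasts had genotype and replicate number. SE is the size of the log2 fold change over the square root of F. Log2 CPM used a prior count of 2. DESeq2 1.42.0 was an alternative. Across genes, same-numbered libraries deviated together from their group means (r = 0.596, 0.736 and 0.850 for numbers 1, 2 and 3), above the bound of 0.1. The blocked fit and the pair differences therefore paired libraries by number. The main comparison and the permutation tests did not, as the labels state no pairing. For libraries labelled Ephb2-KO over WT, only the blocked fit was tried on simulated data. The passage fit and replicate contrasts were tried on simulated libraries that lacked the shared deviation of same-numbered libraries. Figures were drawn with matplotlib 3.10.9.

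The members, gene lists and tests were chosen with earlier results of these data known. Named genes were the members, Ephb2, a fixed set of pathway genes, the 5 genes nearest each member and, from each pathway list, up to 4 called genes with the smallest p or otherwise the 2 smallest. For passage only the members are given, the fixed pathway genes are given for contrasts between replicate numbers, and marker lists are given as sums or counts of genes. Egr1, Fos, Mycn, Ccnd1, Sall4, Twist1, Thy1, Gdnf, Cd68, Csf1r, Fshr and Ptprc were named after their values were seen. Some genes that the rule picks are not reported here.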

Additional observations from a re-analysis of the deposited data

Results flagged for a closer look

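Log2 CPM of Etv1 in the library labelled Ephb2-KO minus WT was -0.39 in pair 3, at passage 18, against 0.49 and 0.48 in pairs 1 and 2, at passage 20. Etv5 had the opposite arrangement, with 0.0312 in pair 3 against -0.08 and -0.21 in pairs 1 and 2. What stood out in both was the turned sign in pair 3, where passage and replicate number cannot be told apart. The Etv5 value in pair 3 was smaller than the SE of 0.12 that Etv5 had in the blocked fit. That SE belongs to the estimate over all 3 pairs and not to a single pair. Etv1 had only 15 to 102 reads. How many of all tested genes turn in this way was not counted. Neither difference was tested, since passage 18 holds 1 pair.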

How the results depend on the processing

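Etv4 and Etv5 kept their direction and call for replicate 2 over replicate 1 under 11 alternatives and over replicate 3 under 10. Leaving out 1 library at a time gave log2 fold changes from 2.08 to 2.62 for Etv4 and 3.21 to 3.38 for Etv5 over replicate 1, and from 2.54 to 2.91 and 2.80 to 2.99 over replicate 3. Etv1 ranged from 1.43 to 1.98 over replicate 1 and from -1.67 to -0.75 over replicate 3. It was not called in the 4 libraries of numbers 1 and 2 (1.69, adjusted p = 0.0732 by edgeR) or by DESeq2 over replicate 3 (-1.22, adjusted p = 0.0727). Requiring 5 CPM or more in 3 libraries left Etv1 untested. Genes called for replicate 2 over replicate 1 numbered 1454 in those 4 libraries, against 2516 in all 6, and 1401 to 3555 with 1 library left out. They were under 2516 by more than 1.5 times without replicate 2 labelled Ephb2-KO (1511), replicate 3 labelled Ephb2-KO (1674), WT replicate 2 (1401) or WT replicate 3 (1648). Over replicate 3 they numbered 3446 to 8594, with 3922 without replicate 3 labelled Ephb2-KO and 3446 without WT replicate 3, against 6928. With 1 library left out, Bcl6b ranged from -0.0054 to 0.96, Fgfr3 from -0.50 to 0.15 and Lhx1 from -0.81 to 0.18 over replicate 1, and Fgfr1 from -0.19 to 0.32 over replicate 3. Among these, Bcl6b was called at its highest, without replicate 1 labelled Ephb2-KO.

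For libraries labelled Ephb2-KO over WT no member was called under any alternative that tested it. DESeq2 gave Etv5 a log2 fold change of -0.17 without a p-value, and the 5 CPM filter left Etv1 untested. Genes called numbered 4 by DESeq2, 4 with the replicate block, and 56, 3 and 4 with the block and without numbers 1, 2 and 3. With the block Etv1 turned to 0.17, and to 0.0071 without number 2 and 0.53 without number 3. Without number 1, Etv4 turned to -0.0077 and Ephb2 to -0.22 under the block. Leaving out 1 library gave -0.68 to 1.13 for Etv1, -1.18 to 1.56 for Etv4, -1.90 to 1.71 for Etv5 and -0.40 to 0.48 for Ephb2, which was also -0.11 without WT replicate 3.

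For passage 20 over 18, all 3 members were called with no filter (Etv1 -1.83, Etv4 2.02, Etv5 2.07) and with the replicate block (-2.07, 1.55 and 1.25, with 7323 genes called). All 3 were also called without number 1 (-1.20, 2.72 and 2.90, with 8556 genes), where the fit compares replicate 2 with replicate 3 only. With no filter the SE of Etv5 was 0.22, against 1.13 with the filter, in the same 6 libraries. Etv1 was also called by DESeq2 (-1.86), without the genotype term (-1.84) and without number 2 (-2.90, with 6869 genes), where Etv5 turned to -0.41. Leaving out 1 library gave -2.34 to -1.38 for Etv1, 1.15 to 2.32 for Etv4, 0.91 to 2.42 for Etv5 and 284 to 4187 genes. Where 1 library of a number was left out, the lone library was assumed to vary like the others. The causes were not tested. Counting error limits Etv1, which had 15 to 102 reads.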
